A study of Mus musculus with 29 samples.

Results

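The genes described here code for 10 matricellular proteins of the heart: Postn, Thbs1, Thbs2, Thbs3, Thbs4, Comp, Tnc, Spp1, Sparc and Fn1. They were taken by symbol from the expression table of a mouse heart failure and recovery study, and each of the 10 symbols is a row among the 29955 genes of the table. All animals are labelled C57BL6, and the study's methods name male wild-type C57BL/6J mice. For heart failure (HF), mice drank water that held the nitric oxide synthase inhibitor L-NAME (0.3 mg/ml) and NaCl (1%) for 5 weeks, and angiotensin II was infused at 0.7 mg/kg/day by osmotic pump for the last 4 of these weeks. HF week 3 was taken during this induction, after 3 of the 5 weeks. The agents were then stopped, and the hearts were left to recover. Values of 24 libraries in 8 groups were used: Control week 19 (5 libraries), HF week 3 (2), HF week 5 (3), and Recovery week 7 (2), week 9 (2), week 11 (3), week 13 (2) and week 19 (5), counted from the start of the protocol. Control week 19 received none of the agents, and it is the age-matched control of Recovery week 19. It is 14 weeks further on than HF week 5, so that HF and age cannot be told apart in that comparison. Age differs in the other comparisons too, with the same limit, except in Recovery week 19 against Control week 19. Mice were 3 months old when the protocol began.

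Matricellular proteins are secreted into the extracellular matrix, where they act on cells and on the assembly of the matrix rather than as its main load-bearing fibres. In the healthy adult heart most of them are held low, and fibroblasts, and for some members macrophages and platelets, are known to make them after injury or pressure load. Periostin (Postn) is a marker of activated cardiac fibroblasts and aids collagen crosslinking. Thrombospondins 1 and 2 form trimers and restrain the growth of vessels, and thrombospondins 3, 4 and 5 form pentamers, the last being cartilage oligomeric matrix protein (Comp). Sparc binds collagen and is needed for its processing, tenascin C (Tnc) modulates cell adhesion, osteopontin (Spp1) is a ligand of integrins and of Cd44, and fibronectin (Fn1) forms the provisional matrix on which collagen is laid down.

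Values are FPKM, that is, mapped fragments set relative to transcript length and library size. Differences are log2 fold changes on the log2(FPKM + 0.5) scale, which understates the change of low genes, with the adjusted p of limma over 12759 genes, those whose mean reached 0.5 FPKM. Of the 10 genes, 9 were tested, and Tnc was not, with a mean of 0.423 FPKM. Spp1 passed this filter through HF week 3 alone, with a mean of 0.933 FPKM over all libraries and 0.498 without that group. A gene is said to have risen or fallen where the adjusted p was under 0.05. Libraries are taken as separate samples of a group, and p-values measure the spread between them, since no library could be tied to a named animal. In whole tissue, more cells of a type and more RNA per cell cannot be told apart.

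Libraries differed in ways that the groups do not describe. The relative depth of 23 libraries was 0.728 to 1.40, and HF week 3 library 1 showed none of the steps that depth is read from. It had 12816 genes above 0, where other libraries had 16339 to 18091. The tissue is labelled as whole ventricle, and the study's methods name apical portions. Of a list of 7 atrial markers, 4 that the ventricle hardly makes (Myl7, Myl4, Sln and Dkk3, a choice made after their values were seen) summed to 5.51 to 8.94 FPKM in Control week 19 and to 4.05 to 15.1 in the recovery libraries. Their sum was 7765 and 14104 FPKM in the HF week 3 libraries and 39861, 421 and 17.5 in HF week 5 libraries 1, 2 and 3. The whole list, which holds Nppa, summed to 336 to 708.5 FPKM in Control week 19 and 2504 to 83100 in HF week 5, and Nppa is listed at 0 in both HF week 3 libraries. Bmp10, also of this list, is at 0 in both too. It was 0 to 0.0523 FPKM in Control week 19 and 0 to 3.68 in HF week 5. Mesothelial markers summed to 1.99 to 3.30 FPKM in Control week 19, to 73.4 and 237 in HF week 3 and to 11.6 to 84.6 in HF week 5. The 4 atrial genes therefore go against the label in HF week 3 and in HF week 5 libraries 1 and 2. Counts of members called in comparisons with HF week 5 are also given without library 1 and with library 3 alone. Those of HF week 3 rest on affected libraries throughout.

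Promoters from RefSeq (GRCm38.p6) were found for 7 of the 10 genes. Shown are 3, 5′ to 3′, as the 250 bases that end before the annotated start: Postn and Thbs4, whose levels moved together over the libraries, and Thbs3, a close relative of Thbs4 that moved less. Postn lies on the plus strand at chr3:54360857-54361106, Thbs4 on the minus strand at chr13:92794819-92795068, and Thbs3 on the plus strand at chr3:89214930-89215179. Capitals mark matches, on either strand, to AP-1 (TGANTCA), TEAD (GGAATG), SMAD (CAGAC) or TATA box (TATAAA) letters.
Postn: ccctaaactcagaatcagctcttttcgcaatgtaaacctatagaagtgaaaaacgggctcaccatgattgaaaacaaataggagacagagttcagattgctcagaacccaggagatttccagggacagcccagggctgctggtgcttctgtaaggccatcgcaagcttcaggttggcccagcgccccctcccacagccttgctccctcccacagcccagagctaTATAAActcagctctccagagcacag
Thbs4: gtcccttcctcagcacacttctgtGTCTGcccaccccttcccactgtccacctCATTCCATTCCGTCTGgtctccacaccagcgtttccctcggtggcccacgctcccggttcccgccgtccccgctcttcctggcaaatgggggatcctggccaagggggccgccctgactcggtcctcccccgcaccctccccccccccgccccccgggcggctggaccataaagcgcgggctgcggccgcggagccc
Thbs3: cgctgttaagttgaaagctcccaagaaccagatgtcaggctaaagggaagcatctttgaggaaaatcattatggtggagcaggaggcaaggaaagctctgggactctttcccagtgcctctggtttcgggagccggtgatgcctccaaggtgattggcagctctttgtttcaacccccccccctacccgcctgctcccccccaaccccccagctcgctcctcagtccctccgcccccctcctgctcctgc
The Postn window, the one of 2 in the table that lies nearest the gene's annotated start, holds TATAAA from -26 to -21, and 12.4% of 32851 windows of the same length hold these letters. The other Postn window, upstream at chr3:54359017-54359266, has SMAD letters from -191 to -187 and no TATAAA. In the Thbs4 window the TEAD letters occur 2 times on the opposite strand, overlapping by 1 base, from -197 to -187, directly followed by SMAD letters from -186 to -182, with another SMAD match from -226 to -222. TEAD letters are in 12.6% of all windows, SMAD letters in 42.2% and AP-1 letters in 6.75%. The Thbs3 window holds none of the 4, which says only that these letters are not in it.

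Periostin was high in both HF groups and near control levels by the end of recovery. Its level in Control week 19 was 5.51, 4.19, 4.69, 3.92 and 8.41 FPKM in libraries 1 to 5. It was 40.1 and 60.6 FPKM in HF week 3, and 34.4, 11.5 and 18.1 FPKM in HF week 5. Every HF library thus lay above every control library. The mean rose from 5.34 ± 1.82 FPKM (SD, n = 5) to 21.3 ± 11.8 (n = 3) at HF week 5, a ratio of 3.99 and 1.81 on the log2 scale (SE 0.33, adjusted p = 0.000839).

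In recovery Postn first stood at 5.37 and 4.17 FPKM (week 7), then at 6.52 and 9.93 (week 9). The 3 libraries of week 11 had 5.68, 10.4 and 16.3 FPKM, those of week 13 had 6.21 and 6.40, and the 5 of week 19 had 4.78, 4.12, 4.44, 3.93 and 7.66. The week 7 and week 19 libraries were in the control range, and 2 of 3 week 11 libraries were above it. Postn fell from HF week 5 to Recovery week 7 by 1.92 on the log2 scale (SE 0.41, adjusted p = 0.00512) and to Recovery week 19 by 1.89 (SE 0.33, adjusted p = 0.00058). Between Recovery and Control week 19 the log2 difference was -0.08 (SE 0.28, adjusted p = 1). Ordered by mean FPKM the groups ran HF week 3, HF week 5, Recovery week 11, week 9, week 13, Control week 19, Recovery week 19 and week 7. Of the neighbours in this order, HF weeks 3 and 5 had ranges that did not overlap, as did Recovery weeks 9 and 13 by a narrow margin, and all other neighbours overlapped.

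**Figure D1:**
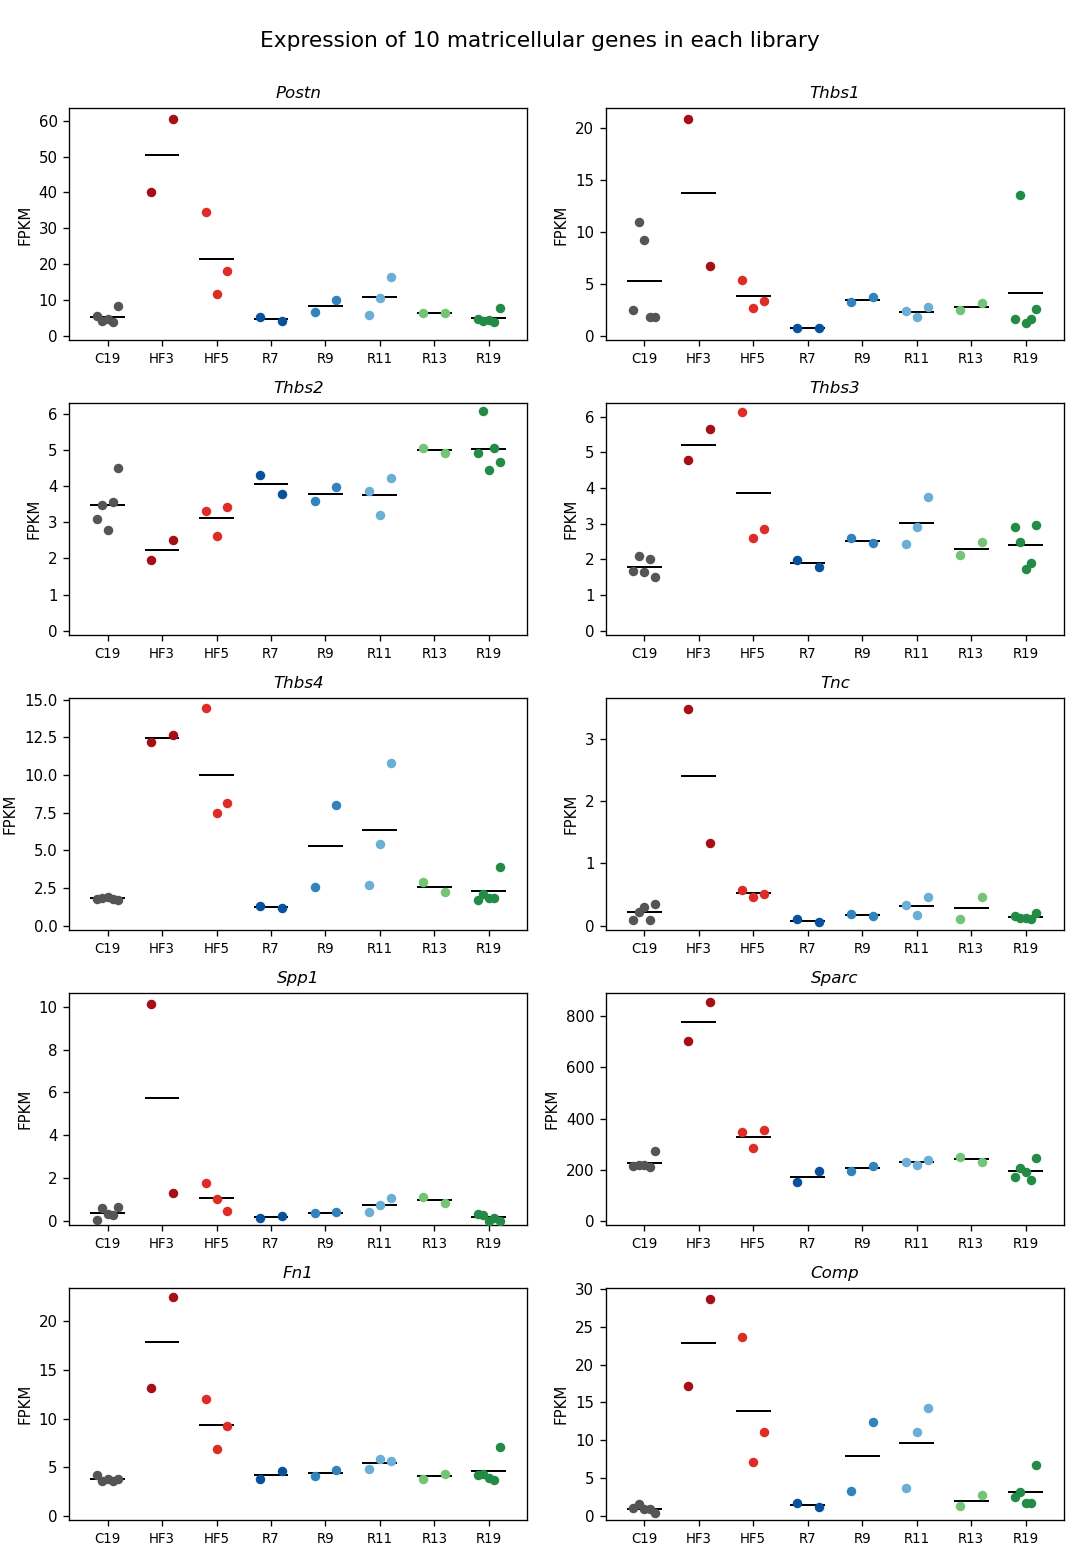
FPKM of each of the 10 genes (vertical axes, each from about 0 and of its own range) in the 24 libraries; points are libraries, black lines group means, and C19, HF3, HF5 and R7 to R19 stand for Control week 19, HF weeks 3 and 5 and Recovery weeks 7 to 19. Postn, Thbs4, Comp, Fn1 and Sparc are high in both HF groups, and Comp and Thbs4 are high again in single libraries of Recovery weeks 9 and 11.

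The pentameric thrombospondins moved together in HF. Comp, a matrix bridge between collagens and best known from cartilage and tendon, was 1.04, 1.49, 0.865, 0.821 and 0.295 FPKM in Control week 19 libraries 1 to 5. It was 17.1 and 28.7 FPKM in HF week 3, and 23.7, 7.05 and 11.1 in HF week 5. Every HF library lay above every control library. The log2 fold change at HF week 5 was 3.26 (SE 0.49, adjusted p = 0.000187), the largest of the 9 genes tested, and the means of 0.901 and 13.9 FPKM gave a ratio of 15.5. Library 1 was the highest of HF week 5 and weighs on that mean. Over the alternative fits the log2 fold change ran from 2.80 to 3.76.

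Thbs4, which aids the secretory pathway and matrix of stressed muscle, was 1.71 to 1.94 FPKM in the 5 control libraries, with a median of 1.78. It was 12.2 and 12.7 FPKM in HF week 3 and 14.4, 7.50 and 8.16 in HF week 5, all above the controls. At HF week 5 it had risen by 2.13 on the log2 scale (SE 0.34, adjusted p = 0.000294). Thbs3 had a smaller rise, from 1.52 to 2.09 FPKM in controls to 6.14, 2.59 and 2.85 in HF week 5, or 0.85 on the log2 scale (SE 0.21, adjusted p = 0.00639). Without HF week 5 library 1 the Thbs3 difference was 0.50 (adjusted p = 0.0779).

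The trimeric thrombospondins did not move in this way. Thbs1 was 2.53, 10.9, 9.23, 1.77 and 1.82 FPKM in Control week 19 and 5.38, 2.69 and 3.32 in HF week 5. The HF values lay inside the control range, and the log2 difference was -0.10 (SE 0.60, adjusted p = 0.919). Thbs2 was 2.79 to 4.51 FPKM in the controls and 3.30, 2.62 and 3.42 in HF week 5, also overlapping, with a log2 difference of -0.13 (SE 0.14, adjusted p = 0.513). Without HF week 5 library 1 the differences were -0.35 for Thbs1 and -0.17 for Thbs2, and with library 3 alone -0.22 and -0.0099 (adjusted p of 0.535 to 0.989).

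Of the remaining members, Fn1 and Sparc rose at HF week 5. Fn1 was 3.59 to 4.14 FPKM in the 5 controls and 12, 6.85 and 9.19 in HF week 5, a rise of 1.17 on the log2 scale (SE 0.19, adjusted p = 0.000364). Sparc, by far the most abundant of the 10 with a mean of 274 FPKM over all libraries, was 211 to 271 FPKM in the controls and 347, 284 and 353 in HF week 5. Its groups did not overlap, and its change was small, 0.53 on the log2 scale (SE 0.14, adjusted p = 0.00946). Without HF week 5 library 1 it was 0.49 (adjusted p = 0.0543).

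Spp1 and Tnc were low at HF week 5. Spp1 was 0.0458 to 0.638 FPKM in the controls and 1.76, 1.02 and 0.434 in HF week 5, and the log2 difference was 0.83 (SE 0.41, adjusted p = 0.145). The difference was 0.52 (adjusted p = 0.507) without HF week 5 library 1 and 0.17 (adjusted p = 0.919) with library 3 alone. It was 0.83 again, and passed the test (adjusted p = 0.0272), without the HF week 3 libraries, where Spp1 would not have passed the filter and 17.4% of all genes rose. Tnc was 0.0926 to 0.35 FPKM in the controls and 0.581, 0.461 and 0.51 in HF week 5, with no overlap. A two-sided exact permutation test of its FPKM gave p = 0.0357, the smallest that 3 against 5 libraries allow. In limma with no filter on low values its log2 difference was 0.53 (SE 0.20, adjusted p = 0.0849) and did not pass.

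In all, 6 of 9 tested members rose at HF week 5 and 0 fell, where 11.6% of all genes tested rose. The 6 were Comp, Thbs4, Postn, Fn1, Thbs3 and Sparc. Without library 1, 4 of them rose, where 4.21% of all genes did, and with library 3 as the only HF week 5 library the same 4 rose, where 1.04% did, Comp by 3.10, Postn by 1.72, Thbs4 by 1.91 and Fn1 by 1.19 on the log2 scale (adjusted p of 0.0234 to 0.0453). That lone library is assumed to vary like the other groups. Its 4 atrial genes sum to 17.5 FPKM, above the highest control library, and its mesothelial markers sum to 11.6 FPKM, above the highest control library at 3.30.

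**Figure D2:**
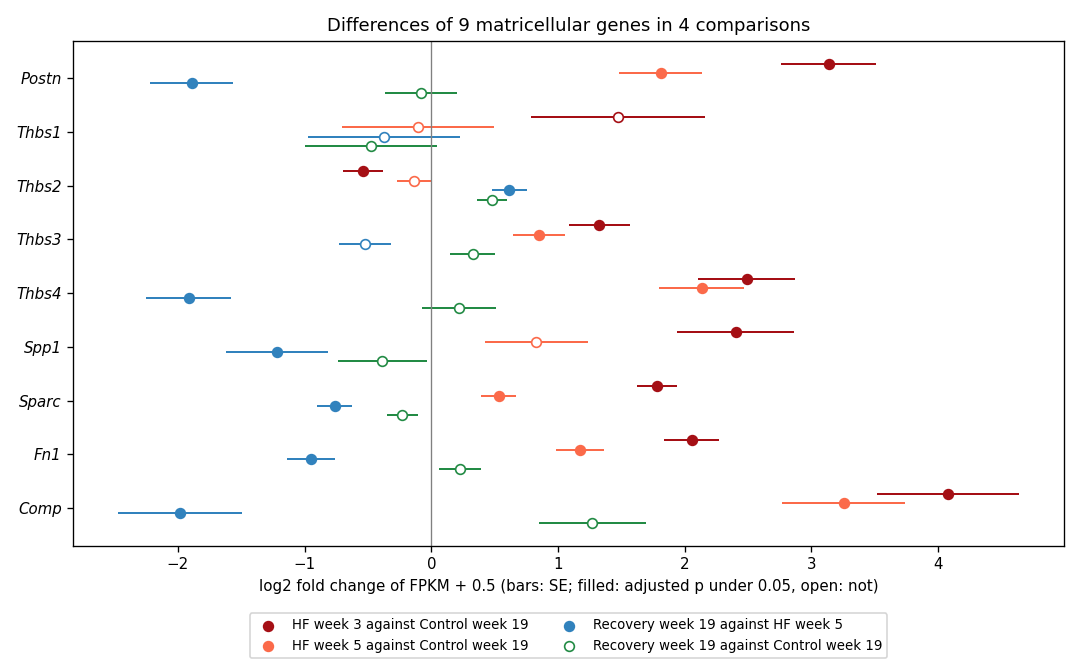
Log2 fold changes of FPKM + 0.5 (horizontal axis) of the 9 genes tested in 4 comparisons; bars are the SE from limma, filled points have an adjusted p under 0.05 and open points do not. Both HF comparisons lie to the right of 0 for 7 genes, Recovery week 19 against HF week 5 lies to the left for them, and no point of Recovery week 19 against Control week 19 is filled.

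HF week 3 was sampled 2 weeks earlier. In comparison with Control week 19, 6 of the 8 tested members other than Spp1 rose, where 23.1% of all genes did, and Thbs2 fell, where 27.6% of all genes did. Spp1 is not counted, since this group let it through the filter. Comp rose by 4.08 (SE 0.56), Postn by 3.14 (SE 0.38), Thbs4 by 2.49 (SE 0.38), Fn1 by 2.06 (SE 0.22), Sparc by 1.78 (SE 0.16) and Thbs3 by 1.33 (SE 0.24) on the log2 scale. Sparc reached 704 and 855 FPKM and Fn1 13.2 and 22.5. Spp1 was 10.1 FPKM in library 1 and 1.31 in library 2, above every control library.

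The fall of Thbs2 at HF week 3 was 0.54 on the log2 scale, from 1.95 and 2.52 FPKM (adjusted p = 0.00817), and without library 1 the difference was -0.39 (adjusted p = 0.139). Tnc was 3.48 and 1.33 FPKM, above every other library of the 24. With no filter on low values its log2 difference from control was 1.94 (SE 0.23, adjusted p = 6.55e-06). Thbs1 was 20.9 and 6.69 FPKM, a log2 difference of 1.47 (SE 0.69, adjusted p = 0.0804). It was 2.26 (adjusted p = 0.0327) with library 1 alone, its spread taken from the other groups, and 0.69 (adjusted p = 0.589) with library 2 alone.

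Between the HF groups, 3 of the 8 members other than Spp1 fell from week 3 to week 5, where 8.28% of all genes did: Postn by 1.33 (SE 0.41, adjusted p = 0.0301), Sparc by 1.25 (SE 0.17, adjusted p = 0.000326) and Fn1 by 0.88 (SE 0.24, adjusted p = 0.0188). For Comp and Thbs4 the log2 differences were -0.82 (SE 0.61) and -0.36 (SE 0.42) and did not pass. The count was 2 without HF week 3 library 1, where 0.948% of all genes fell, 4 without HF week 5 library 1 (9.41%), 1 without HF week 5 library 2 (3.1%), 2 without HF week 5 library 3 (4.22%) and 1 with HF week 5 library 3 alone (3.12%). Sparc passed in each of these fits. Without HF week 3 library 2, Sparc and Thbs1 (-2.36, adjusted p = 0.0398) fell and Thbs2 rose, where 21.3% and 31.7% of all genes did, and Postn and Fn1 did not pass (adjusted p = 0.102 and 0.121). With only the 2 groups in the limma fit, 0 members passed at the adjusted p, where 0.047% of all genes fell and 0.0157% rose, and 4 of the 8 passed at an unadjusted p under 0.05, where 6.69% of all genes did.

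Atrial genes and members are set side by side here. Over the HF week 5 libraries the sum of the 4 atrial genes spanned 39861 to 17.5 FPKM, and Comp spanned 23.7 to 7.05, lowest in library 2. Library 3, with Myl7 at 6.16 FPKM, had Comp at 11.1, Thbs4 at 8.16, Postn at 18.1, Fn1 at 9.19 and Sparc at 353. In Recovery week 9 library 2 and week 11 libraries 2 and 3 the 4 atrial genes summed to 10.8, 14.6 and 15.1 FPKM. Comp in these was 12.4, 11.1 and 14.3 FPKM, as high as in HF week 5 library 3. Their sums of the 4 genes were above every control library, and the whole atrial list summed in them to 2805, 1484 and 1760 FPKM, the highest of the recovery libraries. Recovery week 13 library 1 also had a sum of the 4 genes above every control library, 14.0 FPKM, with Comp at 1.25 FPKM, within the control range. In Recovery week 9 library 1 the whole list summed to 1470 FPKM, with Comp at 3.30 FPKM. The part of atrial markers in the values of the members was not tested.

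**Figure D3:**
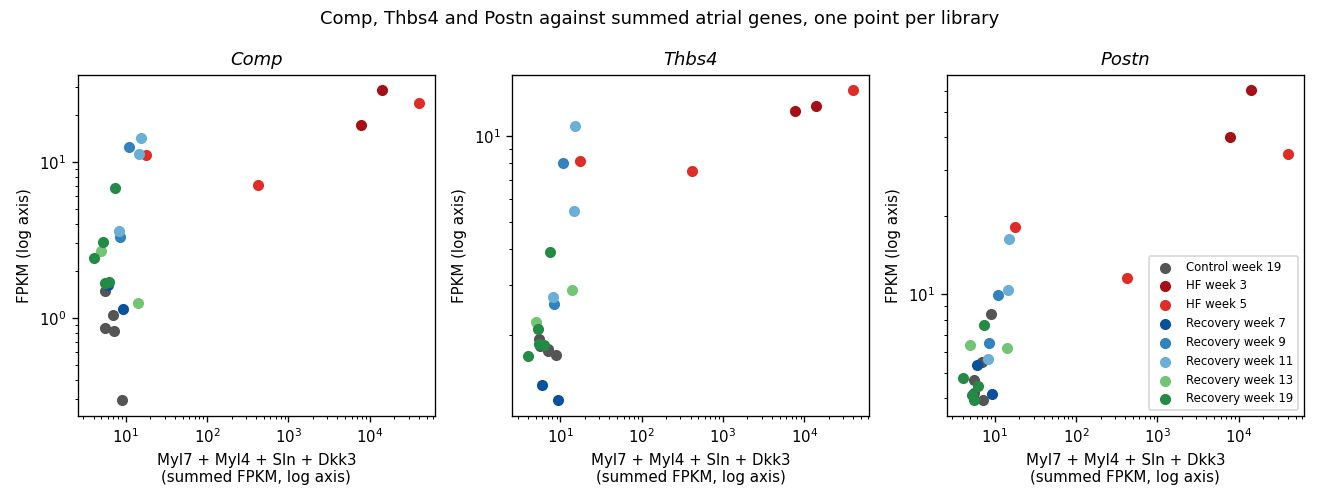
FPKM of Comp, Thbs4 and Postn (vertical log axes) against the summed FPKM of Myl7, Myl4, Sln and Dkk3 (horizontal log axis), one point per library, coloured by group. The HF week 3 libraries and HF week 5 library 1 lie far to the right at 7765 to 39861 FPKM, and single recovery libraries reach Comp of 11.1 to 14.3 FPKM at atrial sums of 10.8 to 15.1. Recovery week 13 library 1 has Comp of 1.25 FPKM at an atrial sum of 14.0.

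Markers of other cells moved too. Fibroblast markers summed to 886 to 1128 FPKM in Control week 19, 1796 and 1798 in HF week 3, 1269 to 2541 in HF week 5 and 1140 to 1824 in Recovery week 19. Endothelial markers summed to 312 to 393 FPKM in Control week 19, 612 and 630 in HF week 3, 434 to 560 in HF week 5 and 315 to 346 in Recovery week 19. Macrophage markers summed to 260 to 451 FPKM in Control week 19 and, above all of these, to 567 and 618.5 in HF week 3. They were 323 to 704 FPKM in HF week 5 and 330 to 721 in Recovery week 19, both overlapping the controls. At HF week 3, 5 of 12 macrophage markers tested rose and 1 fell, where 23.1% and 27.6% of all genes did. Valve, tendon and cartilage markers summed to 9.995 to 14.4 FPKM in Control week 19, 48.9 and 78.6 in HF week 3 and 36.1 to 55.7 in HF week 5, and the part of these cells in the rise of the members was not tested.

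The first recovery libraries, 2 weeks after the agents were stopped, were near control levels. From HF week 5 to Recovery week 7, 6 of 9 members fell, where 6.75% of all genes did. Comp fell by 2.78 (SE 0.61), Thbs4 by 2.53 (SE 0.42), Postn by 1.92 (SE 0.41), Fn1 by 1.05 (SE 0.24), Sparc by 0.94 (SE 0.17) and Thbs3 by 0.78 (SE 0.26) on the log2 scale. Thbs4 stood at 1.34 and 1.18 FPKM, Sparc at 150 and 193 and Thbs1 at 0.773 and 0.772, in each case under all 5 control libraries. Cell markers fell between the same groups: 3 of 10 fibroblast, 3 of 12 macrophage, 4 of 8 endothelial and 3 of 7 smooth muscle markers tested. So did 3 of 4 valve, tendon and cartilage, 4 of 5 mesothelial and 5 of 6 atrial markers tested. At Recovery week 7 the sums were 1087 and 1347 FPKM for fibroblast markers, 215 and 263 for macrophage, 301 and 328 for endothelial and 1091 and 1256 for smooth muscle. They were 11 and 11.4 FPKM for valve, tendon and cartilage, 2.68 and 3.37 for mesothelial and 701 and 965 for atrial markers. The part of these markers in the fall of the members was not tested.

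Against Control week 19, however, 0 members passed the adjusted test in limma at Recovery week 7, where 0.047% of all genes did. At an unadjusted p under 0.05, 2 were lower, where 3.61% of all genes differed: Thbs1 with a log2 difference of -1.81 (SE 0.69) and Sparc with -0.41 (SE 0.16). Recovery week 7 has 2 libraries. The count of 6 falls from HF week 5 was 3 without either of them, where 1.1% and 1.14% of all genes fell, 5 without HF week 5 library 1 (2.41%) and 2 with HF week 5 library 3 alone (0.831%). The fall of Thbs3 (adjusted p = 0.0479) was 0.43 (adjusted p = 0.234) without HF week 5 library 1, and it missed the threshold with no filter, median centring or quantile normalization (adjusted p of 0.0589 to 0.0832).

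In the middle of recovery Comp and Thbs4 were high again in some libraries. At week 9 Comp was 3.30 and 12.4 FPKM, and at week 11 it was 3.61, 11.1 and 14.3. Thbs4 stood at 2.57 and 8.02 FPKM in the former and at 2.72, 5.44 and 10.8 in the latter. All of these were above every control library, and the libraries high in Comp were those high in Thbs4. At week 13 Comp was 1.25 and 2.67 FPKM and Thbs4 2.88 and 2.23. Fibroblast markers summed to 1399 and 1615 FPKM at week 9 and 1592 to 2255 at week 11, above every control library. Valve, tendon and cartilage markers summed to 16.3 and 23.4 FPKM at week 9 and 13.8 to 40.5 at week 11, and macrophage markers to 251 and 443 and to 487 to 693. At week 13 fibroblast markers summed to 1417 and 1802 FPKM and macrophage markers to 586 and 765, also above every control library. Valve, tendon and cartilage markers summed to 11.51 and 15.01 FPKM there. Week 11 library 1, with Comp at 3.61 FPKM, had macrophage markers at 617 and fibroblast markers at 1592. Library 2, with Comp at 11.1, had 487 and 1962. The part of these cells was not tested.

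At Recovery week 11 Comp was higher than in Control week 19 by 2.73 on the log2 scale (SE 0.49, adjusted p = 0.0267), 1 member of 9, where 0.141% of all genes were higher. Over 18 alternatives the adjusted p ran from 0.00553 to 0.334. It was above 0.05 without control library 1, 3 or 4 (0.0607, 0.0674 and 0.0568), without Recovery week 11 library 2 or 3 (0.169 and 0.334) and with no filter on low values (0.0726). Without Recovery week 11 library 1, 2 members were called, where 0.486% of all genes were higher. At an unadjusted p under 0.05, 5 members were higher, where 8.45% of all genes differed: Comp, Thbs4 by 1.38 (SE 0.34), Postn by 0.88 (SE 0.33), Thbs3 by 0.62 (SE 0.21) and Fn1 by 0.48 (SE 0.19).

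For Recovery week 9 against control, 0 members passed the adjusted test in limma, where 0.0549% of all genes did. At an unadjusted p under 0.05, 2 were higher, Comp by 2.38 (SE 0.56) and Thbs4 by 1.15 (SE 0.38), where 3.6% of all genes differed. Recovery week 13 gave 0 members at the adjusted p, where 0.0784% of all genes passed, and 1 at the unadjusted p, Thbs2 with 0.48 (SE 0.16), where 10.4% did. The 10 most abundant genes took 27.9% to 37.4% of all FPKM in Recovery weeks 7 to 13, 19.8% and 37.5% in HF week 3, and 14.6% to 18.8% in the groups of weeks 5 and 19, and the part of this in the differences was not tested.

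**Figure D4:**
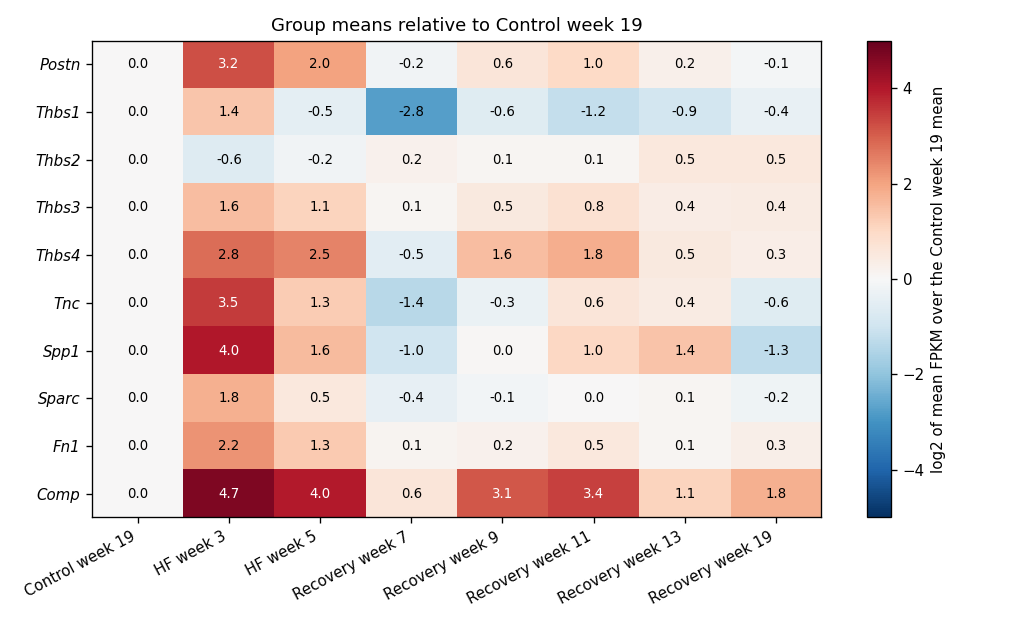
Log2 of the mean FPKM of each group over the Control week 19 mean (colour and printed values), for the 10 genes (rows) and 8 groups (columns); no pseudocount is added here. Comp and Thbs4 are high at HF weeks 3 and 5, lower at Recovery week 7 and high again at weeks 9 and 11, and Thbs2 is the single gene with a lower mean in both HF groups.

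By Recovery week 19, 5 of the 8 tested members other than Spp1 had fallen from HF week 5, where 12% of all genes had, and Thbs2 had risen, where 12.3% had. Comp fell by 1.98 (SE 0.49, adjusted p = 0.00687), Thbs4 by 1.91 (SE 0.34, adjusted p = 0.000648), Postn by 1.89 (SE 0.33), Fn1 by 0.95 (SE 0.19, adjusted p = 0.00178) and Sparc by 0.76 (SE 0.14, adjusted p = 0.000842) on the log2 scale. Thbs3 differed by -0.52 (SE 0.21, adjusted p = 0.0719) and Spp1 by -1.22 (SE 0.41, adjusted p = 0.034). Tnc was 0.103 to 0.198 FPKM, under all 3 HF week 5 libraries (exact permutation p = 0.0357, two-sided). This comparison shares the HF week 5 libraries with those above, so that the same high libraries enter each. Of the cell markers tested, 5 of 5 mesothelial, 5 of 6 atrial, 3 of 4 valve, tendon and cartilage, 4 of 7 smooth muscle and 4 of 8 endothelial fell as well. Of fibroblast markers 1 of 10 fell, and of macrophage markers 0 of 12. At Recovery week 19 mesothelial markers summed to 1.03 to 2.48 FPKM and valve, tendon and cartilage markers to 10.4 to 25.5. The part of these markers was not tested.

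Thbs2 rose by 0.62 from HF week 5 to Recovery week 19 (SE 0.14, adjusted p = 0.00366), whereas Thbs4 and Comp fell and Thbs1 and Thbs3 did not pass. It was 4.46 to 6.09 FPKM at Recovery week 19, above all 3 HF week 5 libraries. Without HF week 5 library 1 its rise was 0.66 (adjusted p = 0.0129), and with HF week 5 library 3 alone it was 0.49 (adjusted p = 0.201). Without library 1, 4 members fell and Thbs2 rose, where 5.27% and 6.86% of all genes did. In that fit the fall of Comp was 1.52 (adjusted p = 0.0693) and Spp1 differed by -0.91 (adjusted p = 0.202). With library 3 alone, only Postn (-1.80, adjusted p = 0.0328) and Sparc (-0.87, adjusted p = 0.0288) of the members passed, where 1.16% of all genes fell and 2.36% rose. The log2 differences of Comp, Thbs4 and Fn1 were then -1.83, -1.69 and -0.96 (adjusted p of 0.0567 to 0.165). Spp1 also missed the threshold, with falls of 1.13 to 1.22, without Recovery week 19 library 3, 4 or 5 and without HF week 5 library 2 (adjusted p of 0.0551 to 0.0775). It missed it with a pseudocount of 1, no filter and quantile normalization too (adjusted p of 0.057 to 0.0714). Spp1 is listed at 0 in 2 Recovery week 19 libraries.

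Against age-matched controls at week 19, 0 members passed the adjusted test in limma, where 0.0235% of all genes did. At an unadjusted p under 0.05, 2 were higher, where 2.88% of all genes differed. Comp was 2.42, 3.06, 1.69, 1.68 and 6.74 FPKM in Recovery week 19 libraries 1 to 5, each above every control library. Its log2 difference was 1.27 (SE 0.42, unadjusted p = 0.00703, adjusted p = 1), and 0.98 without library 5. Thbs2 differed by 0.48 (SE 0.12, unadjusted p = 0.000651, adjusted p = 0.731), and its ranges of 4.46 to 6.09 and 2.79 to 4.51 FPKM met at their ends.

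Library 5 of Recovery week 19 was the highest of its group for Postn (7.66 FPKM), Thbs4 (3.93), Fn1 (7.04), Comp (6.74) and Sparc (246). Its relative depth was 0.728, the lowest of the 23 libraries. Its 4 atrial genes summed to 7.42 FPKM, the highest of its group and within the control range. The whole atrial list summed to 1129 FPKM, above every control library. Fibroblast (1824 FPKM), macrophage (721), platelet (102), smooth muscle (1214) and valve, tendon and cartilage markers (25.5) were also highest there. Endothelial (326), mesothelial (2.24) and skeletal muscle markers (0.172) were not. The part of these markers was not tested. Thbs1, in contrast, was highest in library 2, at 13.5 FPKM against 1.22 to 2.53 in the other 4.

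Over the 24 libraries, pairs of members were compared by Pearson's r of log2(FPKM + 0.5), as a description, since libraries of 1 group share their treatment. The highest values were those of Postn with Fn1 (0.937), Comp with Thbs4 (0.936) and Postn with Thbs4 (0.913). Thbs2 was negative with all 9 others, from -0.66 with Tnc to -0.40 with Thbs3. The values of r of Thbs1 with the 8 members other than Thbs2 were 0.369 to 0.615.

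The genes most like each member in pattern were sought among 11411 genes above 0 in every library. For Thbs4 they were Cilp (r = 0.962), Ltbp2 (0.946), Mgp (0.944), Fmod (0.941) and Comp, and for Comp they were Ltbp2 (0.948), Cilp (0.941), Col14a1 (0.939), Ccdc80 (0.938) and Thbs4, secreted or matrix genes in each case. Cilp, a cartilage matrix protein also made by cardiac fibroblasts, was 1.01 to 1.25 FPKM in the controls and 10.8, 7.66 and 11.7 in HF week 5. It was 5.92 FPKM in Recovery week 9 library 2 and 1.46, 8.43 and 15.3 in Recovery week 11, high in the libraries with high Comp. For Postn the highest r was that of Col16a1 (0.968), and for Sparc that of Col3a1 (0.936).

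Thbs1 had other neighbours: Sertad1 (0.81), Egr2 (0.796), Ier2 (0.78), Fosl2 (0.748) and Errfi1 (0.744), most of them known as genes that stimuli induce within minutes. Egr2 was 10.4 and 7.55 FPKM in control libraries 2 and 3 and 13.4 in Recovery week 19 library 2, against 0.138 to 1.36 in the other controls. These are the libraries in which Thbs1 was 10.9, 9.23 and 13.5 FPKM. Thbs1 varied 6.19-fold between the lowest and highest control library and 11.1-fold within Recovery week 19, and among controls Spp1 varied 13.9-fold, Comp 5.03-fold, Tnc 3.77-fold, Fn1 1.15-fold and Thbs4 1.13-fold.

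**Figure D5:**
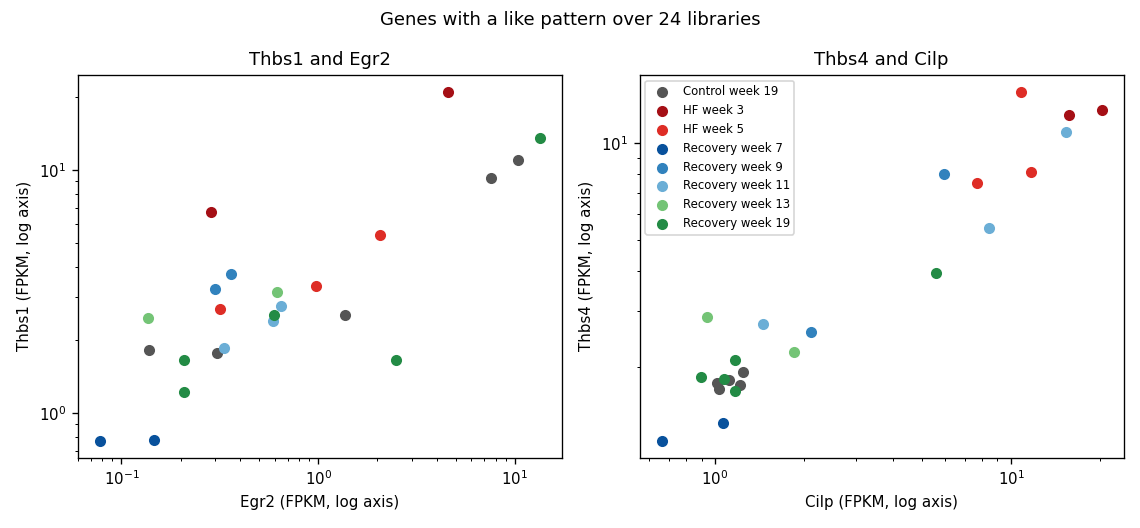
Left, Thbs1 against Egr2, and right, Thbs4 against Cilp, in FPKM on log axes, one point per library, coloured by group. Thbs1 is high where Egr2 is high within the control and Recovery week 19 groups, and Thbs4 and Cilp separate both HF groups and some Recovery week 9 and 11 libraries from the rest.

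Relatives of the members were mixed. Of 15 relatives 9 were tested, and at HF week 5 4 rose and 1 fell against control, where 11.6% of all genes rose and 12.4% fell, with a median log2 difference of 0.34 beside 0.04 over all genes tested. Tgfbi, the closest relative of Postn, rose by 1.27 (SE 0.25, adjusted p = 0.0014), from 6.00 ± 0.714 FPKM (SD, n = 5) to 16.6 ± 9.03 (n = 3). Smoc1 rose by 2.20 (SE 0.39) and Smoc2 fell by 2.17 (SE 0.35, adjusted p = 0.000315), although both belong to the Sparc family. Smoc2 was 7.71 to 15.7 FPKM in the controls and 0.883, 2.63 and 5.98 in HF week 5, and at Recovery week 19 it was 11.8 to 30.0. The others that rose were Fstl1 by 0.83 and Tnxb by 0.34. From HF week 5 to Recovery week 19, 1 of the 9 rose, Smoc2 by 2.63 (SE 0.35), and 3 fell, Smoc1, Tgfbi and Fstl1, where 12.3% and 12% of all genes did. Without HF week 5 library 1, 3 rose and 1 fell at HF week 5, where 4.21% and 6.42% of all genes did, and 2 rose and 0 fell by Recovery week 19 in limma, where 6.86% and 5.27% did. With library 3 alone, Tgfbi (1.13, adjusted p = 0.0336) and Smoc1 (1.54, adjusted p = 0.0454) were the 2 that passed at HF week 5, where 1.04% of all genes rose and 2.19% fell.

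Among receptors, of 16 listed 14 were tested, and 4 rose at HF week 5 and 0 fell, where 11.6% and 12.4% of all genes did, with a median of 0.28. Cd44, which binds osteopontin and hyaluronan, rose by 1.22 (SE 0.23, adjusted p = 0.000975), from 1.34 ± 0.19 FPKM (n = 5) to 3.95 ± 1.61 (n = 3). The integrin chains Itgb3 (0.97), Itgav (0.66) and Itgb5 (0.35), which pair to bind periostin, osteopontin and fibronectin, rose as well. Cd47 and Cd36, receptors of Thbs1, had log2 differences of 0.12 and -0.46 that did not pass. By Recovery week 19, 4 had fallen from HF week 5: Cd44 by 0.91, Sdc4 by 0.85, Itgb3 by 0.79 and Itgav by 0.69, where 12% of all genes fell. In the fit without HF week 5 library 1, Cd44 was the 1 receptor of 14 that rose (0.94, adjusted p = 0.0141), where 4.21% of all genes did, and 0 fell by Recovery week 19 in limma, where 5.27% did. The log2 difference at HF week 5 was then 0.50 for Itgb3, 0.47 for Itgav and 0.40 for Itgb5 (adjusted p of 0.0701 to 0.091). With library 3 alone 0 passed in limma in either comparison, where 1.04% of all genes rose at HF week 5 and 1.16% fell by Recovery week 19.

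Partners and upstream factors had 14 of 15 genes tested, of which 5 rose at HF week 5 and 0 fell, where 11.6% and 12.4% of all genes did, with a median of 0.35. Ctgf, itself a matricellular protein and a target of TGF-beta signalling, rose by 2.16 (SE 0.21, adjusted p = 5.33e-06), from 22.5 ± 4.25 FPKM (n = 5) to 104 ± 33.3 (n = 3). The others were Tgfb2 (0.79), Col3a1 (0.65), Tgfb3 (0.64) and the collagen crosslinking enzyme Lox (0.57), whereas Tgfb1 had 0.18 (adjusted p = 0.26) and Col1a1 0.38 (adjusted p = 0.166). From HF week 5 to Recovery week 19, 3 fell, Ctgf by 2.23, Tgfb2 by 0.72 and Col3a1 by 0.71, where 12% of all genes fell. Without HF week 5 library 1, Ctgf (1.91, adjusted p = 6.68e-05) and Tgfb2 (0.73, adjusted p = 0.0368) were the 2 that rose, where 4.21% of all genes did, and Lox differed by 0.28 (adjusted p = 0.359). With library 3 alone Ctgf was the 1 that rose (1.87, adjusted p = 0.00392), where 1.04% of all genes did. Ctgf was the 1 that fell by Recovery week 19 in both of these fits, where 5.27% and 1.16% did. At Recovery week 19 Ctgf was 21.9 ± 6.50 FPKM (n = 5). In limma 0 genes of the 3 lists passed the adjusted test between Recovery and Control week 19, and 3 relatives, 0 receptors and 1 of the partners and upstream factors did at an unadjusted p under 0.05, where 2.88% of all genes did.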

How the data were processed

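Libraries were made from poly(A) RNA of heart tissue and read as paired ends. The authors aligned reads with TopHat to MGSCv37 (mm9) and computed FPKM with Cuffdiff, and the deposited table gives FPKM per library for 29955 gene symbols. Read counts were not used here and the absolute depth is unknown, so that no counting error is given. The week in a column's name gave its group. Of these columns, 5 carry the name of Control week 5, a group with 4 labelled samples, and were not used. For Recovery week 9, 3 samples are labelled and 2 have a column.

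The 12759 genes whose mean reached 0.5 FPKM were fitted as log2(FPKM + 0.5) with limma 3.58.1 in R 4.3.3, in 1 model of 8 group means with 16 residual degrees of freedom and an eBayes trend. P-values were two-sided and adjusted by Benjamini and Hochberg over all 12759 genes, and the study's own threshold, an unadjusted p under 0.05, is given beside them. The planned comparison with Control week 5 gave way to Control week 19. Calculations were tested on simulated data. Tables and plots used Python 3.11.15, pandas 2.3.3, numpy 2.4.6, scipy 1.17.1 and matplotlib 3.10.9. Alternatives were pseudocounts of 0.1 and 1, no filter, a mean of at least 1 FPKM, median centring, quantile normalization, robust eBayes, only the groups compared, no HF week 3 libraries, calls on unadjusted p-values, and leaving out each library. The fits with HF week 5 library 3 alone, and those of the gene lists without library 1, were added after seeing the data. The filter stayed that of all 24 libraries when libraries were left out.

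All 10 members are named. Other genes are named where a listed relative, receptor or partner passed the test at HF week 5 or Recovery week 19, or where they were among the 5 genes most like a member, and the remaining ones (Cd47, Cd36, Tgfb1, Col1a1 and the atrial genes) were chosen after their values were seen. The members and lists were chosen with earlier results of these data known. The lists were of relatives, receptors, partners and upstream factors, and of markers of fibroblasts, macrophages, endothelium, smooth muscle, platelets, atrium, valve, tendon and cartilage, mesothelium and skeletal muscle.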

Additional observations from a re-analysis of the deposited data

Results flagged for a closer look

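Single libraries stood far from the rest of their group of 5 for 6 of 20 sets of member and group. The rule's rate of about 1 in 20 holds for independent sets of normal values. These sets share libraries and hold members that moved together, so the count cannot be set against that rate. In Recovery week 19, library 5 stood apart for Postn at 7.66 FPKM, Thbs4 at 3.93, Fn1 at 7.04 and Comp at 6.74, and library 2 for Thbs1 at 13.5 FPKM. In Control week 19, library 5 stood apart for Sparc at 271 FPKM.

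The HF effect differed between weeks 3 and 5 for 3 members by the test of the difference itself, which has the same controls on both sides: -1.33 for Postn, -1.25 for Sparc and -0.88 for Fn1 on the log2 scale. Spp1, which passed the filter through HF week 3 and is not counted, had -1.57, and -0.30 (adjusted p = 0.901) without HF week 3 library 1.

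Smooth muscle markers summed to 877 to 1243 FPKM in Control week 19, 2063 and 1096 in HF week 3 and 948 to 1434 in HF week 5. The sums overlap, but 3 of the 7 markers rose at HF week 5 and 0 fell, where 11.6% and 12.4% of all genes did. Their median log2 difference was 0.70. Platelet and megakaryocyte markers summed to 33.6 to 79.9 FPKM in Control week 19, 129 and 198 in HF week 3 and 65.5 to 132 in HF week 5. Skeletal muscle markers summed to 0.43 to 0.723 FPKM in Control week 19, 8.56 and 12.8 in HF week 3 and 1.41 to 8.35 in HF week 5. The part of these markers in the values of the members was not tested.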

How the results depend on the processing

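Over 819 alternatives of 46 member values, 745 kept their direction and side of the threshold, 64 lost the call, 6 gained it and 4 reversed. Reversals were of differences not called: Thbs1 at HF week 5 against control ran from -0.35 to 0.24 over fits that left out 1 library (reversed without control library 2 or 3, at 0.24 and 0.18, or HF week 5 library 2, at 0.09), and Postn at Recovery against Control week 19 from -0.23 to 0.084 (reversed without control library 5). The cause was not tested. Counts of members called moved as follows, with the share of all genes that moved the same way in the same fit. For HF week 5 against HF week 3 the count with Spp1 of 4 (8.28%) became 0 with only these groups in the fit (0.047%), 1 with HF week 5 library 3 alone (3.12%) and 1 to 5 without single libraries (0.948% to 21.3%). For Recovery week 7 against HF week 5 the count of 6 (6.75%) became 1 (0.533%), 2 (0.831%) and 3 to 6 (1.1% to 7.97%) in the same settings. For Recovery week 19 against HF week 5 the count with Spp1 of 7, 6 lower (12%) and 1 higher (12.3%), became 2 with library 3 alone, both lower (1.16%). For Recovery week 11 against control the count of 1 (0.141%) became 0 with no filter (0.0362%) and 0 to 2 without single libraries (0.047% to 0.486%). On unadjusted p-values it became 5, and 2, 2, 1 and 2 in place of 0 for Recovery weeks 7, 9, 13 and 19 against control, where 8.45%, 3.61%, 3.6%, 10.4% and 2.88% of all genes differed in either direction. Fits with only the groups compared have fewer libraries.

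No paired analysis was possible because the columns carry numbers and not the letters of the sample titles. The alternative with Control week 5 was not run, since 5 columns carry its name and 4 samples are labelled. Groups of 2 libraries limit Recovery weeks 7, 9 and 13 and HF week 3.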
